A study of Mus musculus with 9 samples.

Results

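Transcripts of 10 genes that encode proteins of the nuclear lamina, of the inner nuclear membrane and of heterochromatin were examined in AML12 cells, a mouse hepatocyte line, after knockdown of *Srrm2*. The genes are *Lmna*, *Lmnb1*, *Lmnb2*, *Lbr*, *Emd*, *Tmpo*, *Sun1*, *Sun2*, *Cbx3* and *Cbx5*. They were chosen by name, and 9 of the 10 were found by gene identifier among the 13643 genes that were listed with at least 1 hairpin. The level of *Lbr* was not analysed here.

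There were 9 libraries in 3 groups, with 3 libraries each from cells infected for 5 days with lentivirus carrying a control hairpin, *Srrm2* shRNA 1 or *Srrm2* shRNA 2. The cells were grown with serum, insulin-transferrin-selenium supplement and dexamethasone. All groups are cultures of 1 cell line, and nothing in the labels says whether the libraries of a group came from separate cultures. SRRM2 is a scaffold protein of nuclear speckles, the bodies in the nucleus where splicing factors are stored. Each hairpin was set against control libraries in a table of its own. The labels tie all 3 control libraries to the shRNA 1 table, and only control replicate 1 to the shRNA 2 table, so which controls enter the shRNA 2 mean is not settled.

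The value used for each gene is the authors' mean normalized count, which is the count of read pairs divided by the size factor of the library and averaged over control libraries and those of 1 hairpin. Knockdown and control libraries are therefore pooled in every value below. No value per library was used, so that no spread between replicates, no test and no change against the control can be given, and the depth of a single library is unknown. The table with shRNA 1 lists 13424 genes whose means sum to 6144608, and that with shRNA 2 lists 13478 genes whose means sum to 6393456. Means of the 8 hepatocyte markers in the shRNA 1 table ran from 39.4 for *Apoa1* to 9848 for *Krt18*. *Alb*, *Ttr* and *Hnf4a* had 2151, 2497 and 1498. The bile duct markers *Krt19*, *Krt7* and *Sox9* had 2851, 1351 and 670. All 8 hepatocyte markers were listed, as were 3 of 4 bile duct markers, whereas 0 of 4 endothelial markers, 2 of 4 leukocyte markers and 2 of 4 stellate cell markers were listed, the last at means of at most 8.03 in either table. *Srrm2* itself had means of 3428 and 3759 in the shRNA 1 and shRNA 2 tables, which cannot show the knockdown because control libraries enter both.

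The lamina is a mesh of intermediate filament proteins under the inner nuclear membrane. A-type lamins come from *Lmna* and B-type lamins from *Lmnb1* and *Lmnb2*. Chromatin that is silent in a cell tends to lie against this mesh, held there by membrane proteins such as emerin and LAP2 and by the lamin B receptor, which binds HP1. HP1 proteins, encoded by *Cbx1*, *Cbx3* and *Cbx5*, read the methylated histone tails of heterochromatin. SUN proteins cross the inner membrane and join the lamina to the cytoskeleton through nesprins. Nuclear speckles, in contrast, lie in the interior of the nucleus next to active chromatin.

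Lamin coding sequences were inspected first, because a count per gene joins products that differ at their end. The last 30 coding bases of the products below are shown 5′ to 3′ from NCBIM37, the assembly of mm9, with the codons of the carboxy-terminal cysteine box in capitals. The box is the site where a farnesyl group is added.
Lamin A (Lmna-001): cagagctcccagaacTGCAGCATCATGtaa
Lamin C (Lmna-002): caccaccgtgtgagtggcagccgccgctga
Lamin B2 (Lmnb2-001): actacctcaaggggcTGCCGACTGATGtga
*Lmna* lies on the - strand of chromosome 3, from 88285070 to 88313878. Its end for lamin A is split over 2 exons, with 3 bases at chr3:88286268-88286270 and 27 bases at chr3:88285996-88286022. The end for lamin C lies within 1 exon, at chr3:88287219-88287248, and has no such box. The end for lamin B2 is at chr10:80365604-80365633 on the - strand. Lamin A has 665 residues and lamin C has 574 in this annotation, and the values for *Lmna* below do not separate these from each other or from a further product of 462 residues.

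Levels were compared between genes as mean normalized counts per kilobase of the longest coding transcript. On this scale *Lmna* was the highest of the 9 genes, and *Cbx5* was higher when the length of all exons joined was used or with no division by length. Its mean normalized count was 1221 in the shRNA 1 table and 1249 in the shRNA 2 table, or 387 and 396 per kilobase, which placed it at percentile 92.9 of protein-coding genes in both. *Lmnb1*, the B-type lamin on chromosome 18 from 56867467 to 56913078, had means of 220 and 245, or 77.3 and 86.2 per kilobase, at percentiles 57.7 and 59.6. *Lmnb2*, on chromosome 10 from 80363948 to 80380990, was the lowest, with means of 140 and 126, or 39.5 and 35.7 per kilobase, at percentiles 39.5 and 36.3. The level of *Lmna* per kilobase was thus 5.00 times that of *Lmnb1* in the shRNA 1 table and 4.59 times in the shRNA 2 table. Against both B-type lamins summed, it was 3.31 and 3.25 times as high. Without division by length, *Lmna* was 5.56 and 5.10 times *Lmnb1*.

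The membrane proteins spanned a narrower range. *Tmpo* encodes the LAP2 proteins, several of which cross the inner membrane and bind B-type lamins, while LAP2α is soluble and binds A-type lamins. The gene, on chromosome 10 from 90610316 to 90634759, had means of 1129 and 1036 in the shRNA 1 and shRNA 2 tables, or 299 and 274 per kilobase. Its 6 complete coding transcripts give products of 106 to 693 residues, which a count per gene does not separate. *Emd* encodes emerin, which like LAP2 carries a LEM domain that binds the chromatin protein BAF. On chromosome X from 71500026 to 71506887, it had means of 183 and 175, or 115 and 110 per kilobase. *Tmpo* was thus 2.60 and 2.51 times as high as *Emd* per kilobase. The pseudogene *Gm14686* is annotated on the same strand within *Emd*, over 343 bases at chrX:71506371-71506713. Whether this overlap lowered the count of *Emd* was not tested.
*Sun1* and *Sun2* encode the SUN proteins. *Sun1*, on chromosome 5 from 139676591 to 139725794, had means of 543 and 558, or 131 and 135 per kilobase. *Sun2*, on chromosome 15 from 79554500 to 79572966, had means of 402 and 467, or 106 and 123 per kilobase. The level of *Sun1* was 1.24 times that of *Sun2* in the shRNA 1 table and 1.10 times in the shRNA 2 table. This direction turned with the length of all exons joined, which gave 0.884 and 0.781 times, so the order of the SUN genes is not settled.

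*Cbx5*, which encodes HP1α, ranked next to *Lmna*. On chromosome 15 from 103021975 to 103070247, it had means of 2972 and 2737, the largest of the 9 genes before division by length, or 338 and 311 per kilobase. Its complete coding transcripts have 8803, 3661 and 1146 bases and encode the same product of 191 residues, so that its level per kilobase depends on which of them the cells make, and the longest was used. *Cbx3*, which encodes HP1γ, had means of 330 and 293, or 175 and 155 per kilobase. *Cbx5* was 1.93 and 2.0 times as high as *Cbx3* per kilobase. The size of this ratio rests on the length used, with 3.23 and 3.34 times over all exons joined and 9.02 and 9.33 times with no division by length.
On the longest coding transcript, *Lmna*, *Cbx5*, *Tmpo* and *Cbx3*, in this order, were the highest in both tables, and *Lmnb1* and *Lmnb2* the lowest. With all exons joined, *Cbx5* (330 and 304 per kilobase) came before *Lmna* (287 and 294), and *Lmnb1* (74.2 and 82.7) came before *Emd* (72.9 and 69.4) and *Sun1* (71.5 and 73.5). *Tmpo* stayed in place 3 and *Lmnb2* in place 9 with both lengths and with no division by length. On the longest coding transcript, of the 9 genes, 7 held the same place in both tables, and the exceptions were *Emd* and *Sun2*, which were neighbours in the order and changed places. Neighbours differed by factors of 1.09 to 2.41, and with no spread between libraries, none of these steps can be called larger than the error. With either hairpin, 8 of the 9 genes lay above the median of protein-coding genes, which was 59.8 per kilobase with shRNA 1 and 62.2 with shRNA 2. By construction, 50% of the 12628 and 12691 protein-coding genes lie above it. The median percentile of the 9 genes was 73.2 and 72.8.

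**Figure D1:**
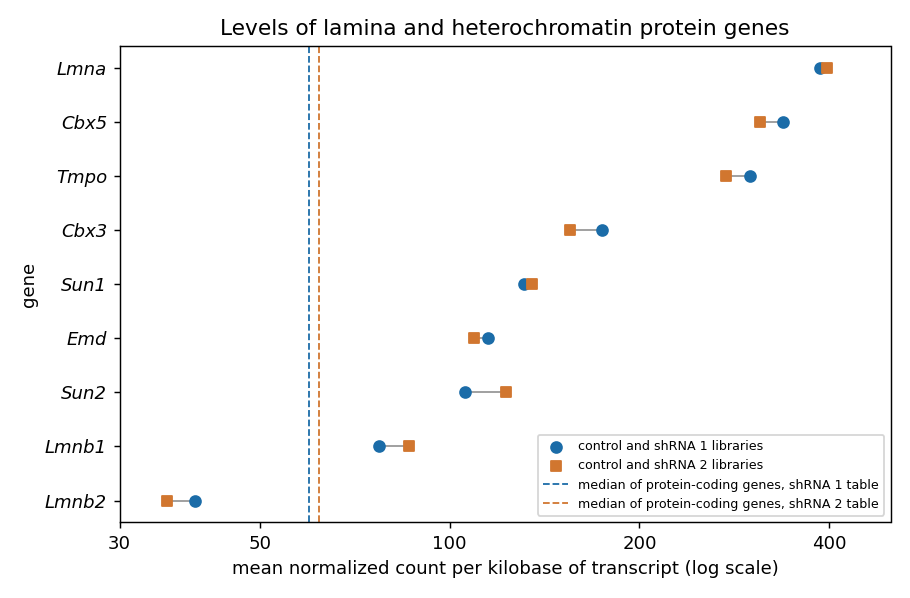
Mean normalized count per kilobase of the longest coding transcript (x axis, log scale) for each of the 9 genes (y axis), with circles for the means over control and shRNA 1 libraries and squares for those over control and shRNA 2 libraries, and no error bars because the means are pooled. Dashed lines mark the medians of protein-coding genes, 59.8 and 62.2, and *Lmnb2* alone lies to their left.

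*Cbx3* differed from the other genes in how far its transcript is unique in the genome. The authors kept uniquely mapped pairs, so that reads that match equally well elsewhere were lost, and the longest coding transcript of each gene was therefore searched in NCBIM37. Of the 1840 windows of 50 bases in the *Cbx3* transcript, 1565 (85.1%) had an exact match outside the gene, and of 1790 windows of 100 bases, 1415 (79.1%). These are shares of windows and not of reads. A read pair that spans more bases can cover a difference, and the share of reads lost was not measured. In the other 9 transcripts, *Lbr* included, the share of such windows of 50 bases was at most 0.689%, in *Lmnb2*, and no window of 100 bases matched elsewhere. The coding part of *Cbx3* aligned to 11 other loci at an identity of at least 90% over at least 100 bases, and that of the others to 0.

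**Figure D2:**
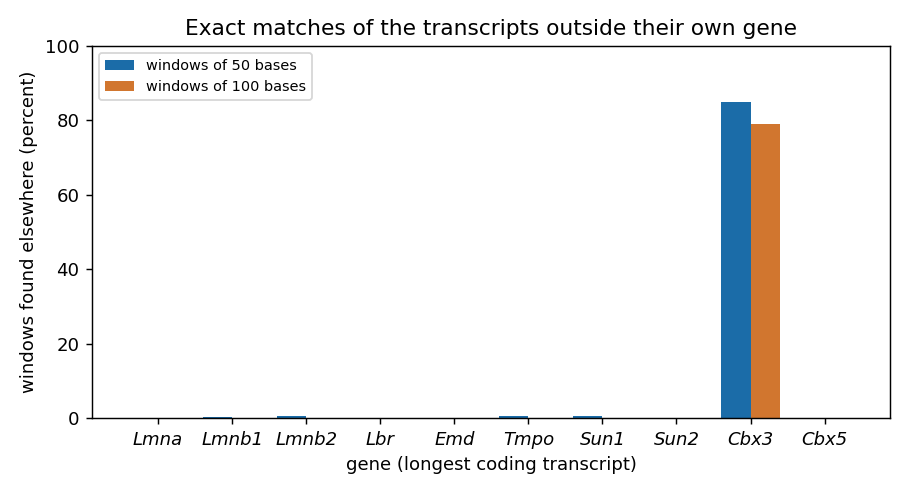
Share of windows of 50 and of 100 bases (bars) in the longest coding transcript of each gene that have an exact match in NCBIM37 outside that gene (y axis, percent). *Cbx3* reaches 85.1% and 79.1%, and the other 9 genes stay at or below 0.689%.

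*Cbx3* lies on the + strand of chromosome 6, from 51420359 to 51433703. The closest copies are uninterrupted stretches on chromosome 14 (chr14:74353724-74355433, - strand), with an identity of 99.0% over 1725 aligned bases, and on chromosome 1 (chr1:58703437-58705161, + strand), with 98.3% over 1743. Within the 552 coding bases, stop codon included, the copy on chromosome 14 differs from *Cbx3* at 1 base and that on chromosome 1 at 2 bases. The stretch that holds these differences, coding bases 360 to 419, is shown 5′ to 3′ on the coding strand of each, with differing bases in capitals.
Cbx3, chr6:51431752-51431811: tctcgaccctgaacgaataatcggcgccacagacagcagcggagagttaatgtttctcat
Copy, chr14:74354940-74354999: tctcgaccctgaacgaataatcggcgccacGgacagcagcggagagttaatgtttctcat
Copy, chr1:58703891-58703950: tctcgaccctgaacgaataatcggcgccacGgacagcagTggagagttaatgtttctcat
Counted from 1 at the first base shown, with the base of *Cbx3* first, both copies have A31G and the copy on chromosome 1 also C40T. Read pairs that cover no base at which the loci differ cannot be assigned to 1 of them.
Both copies carry a gene in the annotation that was also listed in the tables. They are named here after their values were seen. *Gm6984*, on chromosome 14 from 74353729 to 74355393, had means of 134 and 126 in the shRNA 1 and shRNA 2 tables, which is 40.5% and 43.0% of the mean of *Cbx3*. *Gm10068*, on chromosome 1 from 58703452 to 58705161, had means of 14.8 and 12.2. The 3 genes together had means of 478 and 432, of which the 2 copies made up 31.1% and 32.1%. Taken over the length of *Cbx3*, the sum corresponds to 253 and 229 per kilobase, at percentiles 87.6 and 85.1, against 80.4 and 76.8 for *Cbx3* alone. Against this sum, *Cbx5* was 1.33 and 1.36 times as high. A further listed gene, *4930473A06Rik*, spans a copy on chromosome 4, but 0 of its exonic bases lie in that copy, and it was not added. Whether reads counted on the copies came from *Cbx3* RNA was not tested.

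**Figure D3:**
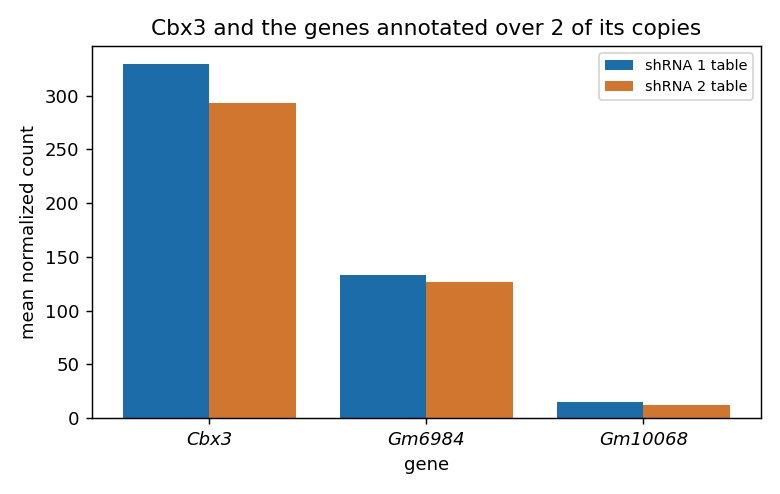
Mean normalized count (y axis, not divided by length) of *Cbx3* and of *Gm6984* and *Gm10068*, genes annotated over its copies on chromosomes 14 and 1, in the shRNA 1 and shRNA 2 tables (bars, no error bars because the means are pooled). *Gm6984* stands at 134 and 126 beside 330 and 293 for *Cbx3*.

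Both tables were then set side by side, since they differ in which hairpin libraries were averaged with the controls. They may also differ in their control libraries, because those that enter the shRNA 2 mean are not settled. The tables were normalized separately, so the log2 ratio of the means, shRNA 2 table over shRNA 1 table, was centred on its median of 0.07 over the 7757 genes whose means reached 100 in both. The control libraries in both means pull this ratio toward 0, and it is no fold change between the hairpins. Among all these genes the centred ratio had a standard deviation of 0.15 and quartiles of -0.09 and 0.08.
The ratio was below 0 for 7 of the 9 genes and above 0 for 2, against 50% of all genes below 0, and its median was -0.14. *Cbx3* had the lowest ratio when counted alone, -0.24, at percentile 5.58 of all genes. *Lmnb2* had -0.21, *Tmpo* -0.19, *Cbx5* -0.19 and *Emd* -0.14. These 5 genes lay below the lower quartile of all genes. Of relatives of theirs outside the 9 genes, the HP1 gene *Cbx1* had 0.32. The LEM domain genes *Lemd2*, *Ankle2* and *Lemd3* had 0.06, 0.01 and -0.04. *Lmna* and *Sun1* were close to the middle of the distribution, at -0.04 and -0.03. *Sun2* had the highest ratio, 0.15, at percentile 87.8, and *Lmnb1* had 0.09, at percentile 76.0, both above the upper quartile. Before centring, *Lmna* and *Sun1* were also above 0, at 0.03 and 0.04, so that 4 of the 9 genes were.
Adding the means of *Gm6984* and *Gm10068* to that of *Cbx3* gave a centred ratio of -0.2148, next to -0.2149 for *Lmnb2*, so that *Cbx3* was then no longer the lowest. *Gm6984* and *Gm10068* alone had -0.15 and -0.35.

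**Figure D4:**
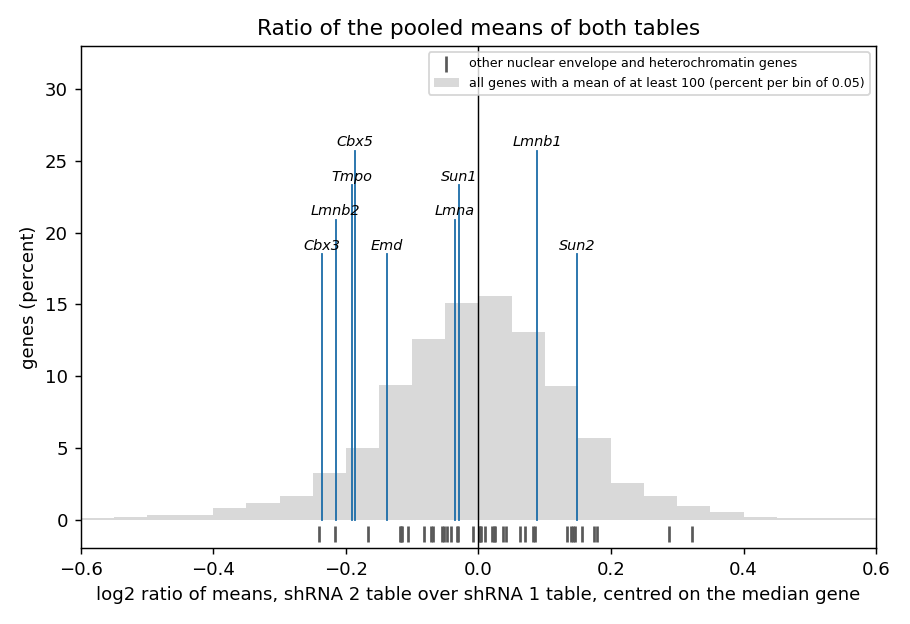
Centred log2 ratio of the pooled means, shRNA 2 table over shRNA 1 table (x axis). Grey bars give the percent of the 7757 genes whose means reached 100 in each bin of 0.05 (y axis), lines mark the 9 genes (line height carries no value), and ticks below 0 mark the other nuclear envelope and heterochromatin genes with such means. The 9 genes run from -0.24 for *Cbx3* to 0.15 for *Sun2*.

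Ratios between genes within 1 table do not depend on a scale shared by all values of that table. The level of *Lmnb1* per kilobase was 1.96 times that of *Lmnb2* in the shRNA 1 table and 2.41 times in the shRNA 2 table. A larger shift was seen in the HP1 pairs that hold *Cbx1*, whose centred ratio was 0.32. The HP1 pair without it moved less, with *Cbx5* at 1.93 and 2.0 times the level of *Cbx3* per kilobase. *Cbx5* was 3.27 times as high per kilobase as *Cbx1*, which encodes HP1β, in the shRNA 1 table and 2.30 times in the shRNA 2 table, and *Cbx3* was 1.69 and 1.15 times as high as *Cbx1*. With all exons joined, *Cbx5* was 7.50 and 5.27 times and *Cbx3* 2.32 and 1.58 times as high as *Cbx1*. The length thus sets the size of these ratios but not the factor by which they differ between the tables. With *Gm6984* and *Gm10068* added to *Cbx3*, it was 2.45 and 1.69 times as high per kilobase as *Cbx1*. The transcript of *Cbx1* was not searched for copies. The shifts between *Lmnb1* and *Lmnb2* and in the ratios to *Cbx1* describe the pooled means only. The error of these shifts is unknown, so whether the genes of these pairs differed by unlike factors is not settled.

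A wider list of 46 genes of the nuclear envelope and of heterochromatin was read in the same way. It holds LEM domain proteins and lamina partners, nesprins and *Sun3*, enzymes of lamin processing and nucleoporins. The rest, called heterochromatin genes below, were grouped under a loose heading of HP1 and the methylation of histone H3. They are *Cbx1*, *Suv39h1*, *Suv39h2*, *Setdb1*, *Ehmt1*, *Ehmt2*, *Trim28*, *Atrx*, *Daxx*, *Hdac3*, *Ncor1*, *Kdm4a*, *Chaf1a*, *Mphosph8*, *Uhrf1* and *Dnmt1*. Of the 46 genes, 44 were listed in both tables, and the testis gene *Sun3* and the nesprin gene *Syne4* were not analysed here. Their median level was 94.3 and 93.9 per kilobase in the shRNA 1 and shRNA 2 tables, against 131 and 135 for the 9 genes. With all exons joined the medians were 78.9 and 85.9 against 80.9 and 90.9. On the longest coding transcript, 35 of the 44 lay above the median of protein-coding genes in each. The highest levels in the shRNA 1 table were those of *Banf1*, which encodes BAF, the partner of LEM domains, at 798 per kilobase, of *Trim28*, a co-repressor that recruits HP1, at 649, and of *Tmem43*, a partner of emerin, at 310. The lowest were *Suv39h2*, an enzyme that methylates histone H3 for HP1, at 5.88, the farnesyltransferase subunit *Fntb* at 18.9 and the membrane protein gene *Nrm* at 23.5.
Of the 39 listed genes whose means reached 100 in both tables, 17 had a centred ratio below 0 and 22 above 0, with a median of 0.0035. The highest ratios were those of *Cbx1* (0.32), of the nesprin gene *Syne1* (0.29) and of the histone methyltransferase gene *Ehmt1* (0.18). The lowest were those of *Suv39h1* (-0.24), of *Zmpste24*, the protease that cuts prelamin A (-0.22), and of the nucleoporin gene *Nup50* (-0.17). Within the list, 7 of 14 heterochromatin genes, 6 of 11 nucleoporin genes, 3 of 8 LEM domain and lamina partner genes, 1 of 4 genes of lamin processing and 0 of 2 nesprin genes had a ratio below 0.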

How the data were processed

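Per the labels and the methods of the study, the authors trimmed the reads and mapped them to mm9 with TopHat2. Only uniquely mapped pairs without mixed or discordant alignments were kept. The authors took counts per gene of GENCODE M1 from HTSeq and normalized them with DESeq2 1.8.2. The library kit is named as one for total RNA while the libraries are described as enriched for polyA RNA, so the RNA selection is not settled. The authors' deposited tables, 1 per hairpin, give for each gene the mean normalized count, a signal averaged over both groups. They also hold the authors' own comparison (fold change, standard error, statistic, p-value and adjusted p-value), which was not used. Groups came from the sample titles. The labels of control replicates 2 and 3 name the shRNA 1 table and tables numbered for further hairpins.

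Gene identifiers all matched GENCODE M1 on NCBIM37. Levels were divided by the length of the longest coding transcript and ranked among protein-coding genes. Transcripts were searched in the genome as exact windows and with blastn 2.17.0 (identity of at least 90% over at least 100 bases, reaching the coding part by 100 bases, hits within 10000 bases joined). Centring and window search were checked on simulated data. Python 3.11.15, numpy 2.4.6, pandas 2.3.3 and matplotlib 3.10.9 were used.

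The members and lists were chosen with earlier results of these data known. The genes named are all members, *Srrm2*, and from the wider list the 3 highest and 3 lowest per kilobase and the 3 in each direction with the largest centred ratio. The heterochromatin genes of that list were all named to show what the group holds, and *Gm14686* because it overlaps *Emd*. Named after their values were seen were *Gm6984*, *Gm10068*, *4930473A06Rik*, *Lemd2*, *Lemd3* and *Ankle2*. So were *Cbx1*, which was set beside the other HP1 genes, and the hepatocyte and bile duct markers named. *Syne3* could not be matched to the annotation by symbol. Alternatives were the length used, the background genes, a minimum mean of 10, no division by length, other centrings and a higher identity.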

Additional observations from a re-analysis of the deposited data

How the results depend on the processing

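The count of genes above the median, 8 of 9 in each table, did not change with the length of the union of all exons, with all genes as background, with a minimum mean of 10 or without division by length. Under these alternatives the median percentile was 65.6, 74.6, 69.8 and 72.4 in the shRNA 1 table and 67.9, 74.2, 69.3 and 74.9 in the shRNA 2 table. The ratio of *Lmna* to *Lmnb1* was 3.87 and 3.55 with the union of exons and 5.56 and 5.10 without division by length. The same lengths were applied to the other ratios after seeing the data. With the union of exons the ratio of *Sun1* to *Sun2* turned to 0.884 and 0.781 and that of *Cbx5* to *Lmna* to 1.15 and 1.03, and without division by length the latter was 2.43 and 2.19. None of the other ratios of gene pairs stated in the text turned. Pairs without a stated ratio did turn. *Lmnb1* passed *Emd* and *Sun1* with the union of exons, and *Cbx3* fell below *Sun1* and *Sun2* without division by length. The count of genes with a ratio above 0 between the tables was 2 under each centring tried and 4 when not centred. The median ratio was -0.13 when centred on the summed means, -0.071 when not centred, -0.14 with a minimum mean of 10 for centring and -0.14 with 1000. At an identity of at least 95%, the copies of *Cbx3* numbered 3 in place of 11, and the other genes had 0 under both settings. Adding *Gm6984* and *Gm10068* to *Cbx3*, also chosen after seeing the data, left it in place 4 of the 9 genes in both tables. No paired analysis was possible because the tables give 1 pooled mean per gene and no value per library. For the same reason no replicate was left out, and precision cannot be stated.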
